A study of Mus musculus with 35 samples.

Results

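The protocadherin beta genes are neighbouring genes of the mouse chromosome 18, and 10 of them are described here array by array: Pcdhb3, Pcdhb5, Pcdhb6, Pcdhb7, Pcdhb9, Pcdhb14, Pcdhb16, Pcdhb17, Pcdhb20 and Pcdhb22. They were taken as named, with every probe set annotated to one of them alone, which gave 13 probe sets of 45037 and 10 genes of the 18193 measured. Each of the 10 genes had a probe set, 8 of them a single one. The list has no threshold and was selected on sight of earlier results of these arrays. Their genotype differences are taken as the values that chose them and are given as a description, without a p-value. The MCAO comparisons use the same surgery arrays. Their p-values are adjusted over all genes, but not for how the list was chosen. Counts of the 10 past a threshold in any comparison stand beside the share over all genes, and nothing is read from them.

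RNA of a brain hemisphere was measured on Affymetrix mouse arrays in male mice of the FVB strain, either wild type or lacking the beta2 adrenergic receptor. Per genotype, 7 arrays followed middle cerebral artery occlusion (MCAO), a model of ischemic stroke, and 3 followed a sham operation, both 24 h after surgery and from the operated side. A further 8 wild type and 7 knockout arrays held naive hemispheres without surgery, and these were normalized apart from the surgery arrays, so no level is compared between the 2 sets. The labels do not say whether every array is a separate animal, nor from which strain the targeted allele came, so p-values measure the spread between arrays, and loss of the receptor cannot be told apart from any other difference between the 2 mouse lines.

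Clustered protocadherins are cell adhesion proteins of the cadherin superfamily, encoded in an alpha, a beta and a gamma group that lie side by side. Each neuron expresses its own mix of them, and like isoforms on opposing membranes bind each other, a system known for letting branches of the same neuron recognise and avoid one another. Each beta gene is a single coding exon with its own promoter, chosen with the help of the insulator protein CTCF and of cohesin, and the beta proteins lack the shared cytoplasmic end of the alpha and gamma proteins. No separate role is assigned here to any single beta isoform, and since the genes resemble one another, signal that a probe set takes up from a related gene cannot be separated.

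Values are log2 signals, so a difference of 1 is a doubling, and signals of different genes are not compared with each other. Among the 18193 genes, each read from the probe set that stands for it, the mean signal over the surgery arrays lay at percentile 5.4 for Pcdhb14, 8.6 for Pcdhb6, 18.9 for Pcdhb22 and 19.0 for Pcdhb5, and between 36.9 and 52.3 for the other 6. A gene was called changed at a Benjamini-Hochberg adjusted p under 0.05 from limma, adjusted over all genes. Of the 20 surgery arrays none stood far apart in its overall profile, but wild type naive array 6 did: it correlated with the other wild type naive arrays at 0.804 to 0.825, where those correlated with each other at 0.98 to 0.998. Its 3' minus 5' difference of the actin control probe sets, a sign of RNA quality, was 4.88 against 0.28 to 0.72 on the other 7, and naive results that it moves are also given without it.

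**Figure D1:**
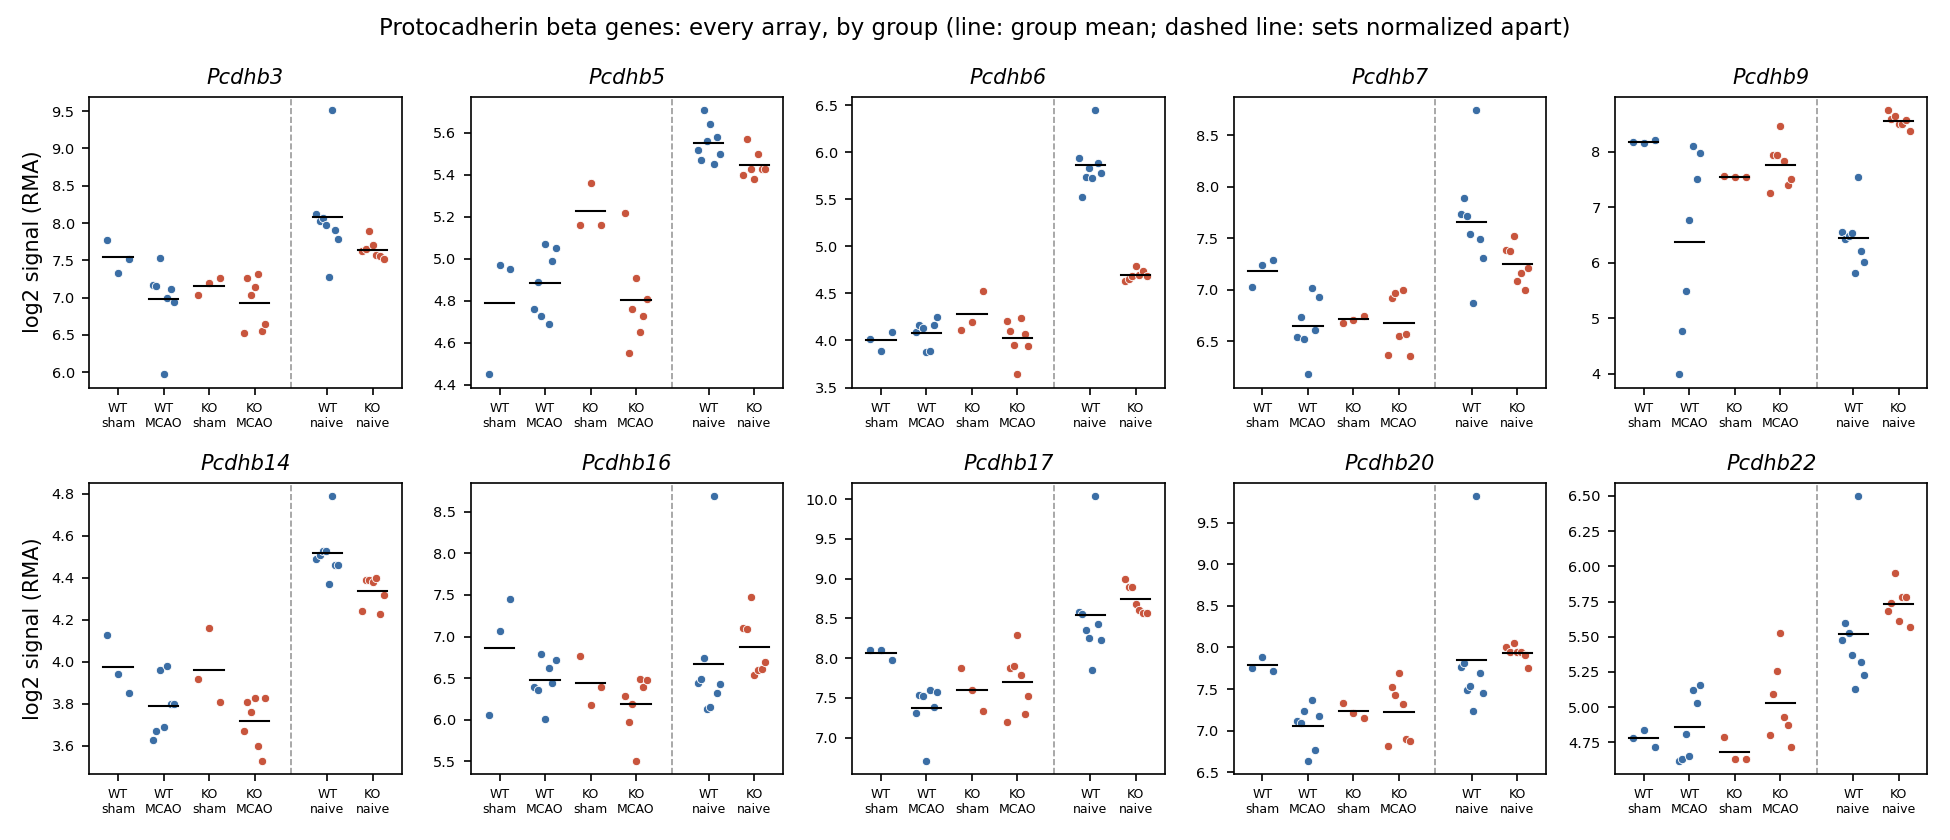
Log2 signal (vertical axis) of each of the 10 genes on every array (points; blue wild type, red knockout) by group, with the group mean as a line; surgery and naive arrays, left and right of the dashed line, were normalized apart. Pcdhb9 spreads from 3.99 to 8.11 on the wild type MCAO arrays, and the single high wild type naive point in most panels is array 6.

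In wild type mice, 3 of the 10 genes, Pcdhb7, Pcdhb17 and Pcdhb20, were lower after MCAO than after sham, by 1.45-, 1.60- and 1.66-fold. None rose. Over all genes 15.9% were called in this comparison and 7.27% were called lower. The median log2 difference of the 10 genes was -0.46, against 0.05 over all genes and -0.15 for the 12 other beta genes. Since the list was chosen on sight of these arrays, these counts and medians are a description.

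Pcdhb20 read 7.75, 7.88 and 7.72 on the 3 wild type sham arrays and 6.64 to 7.37, with a median of 7.11, on the 7 MCAO arrays. The groups did not overlap. The log2 difference was -0.73 (SE 0.18), with an adjusted p of 0.0073 from limma, and it passed the threshold whichever single array was left out. Pcdhb17 read 8.10, 8.10 and 7.98 after sham and 6.71 to 7.60, with a median of 7.52, after MCAO, again without overlap. MCAO array 4 was the lowest, at 6.71. The difference was -0.68 (SE 0.20, limma adjusted p 0.0242). Pcdhb7 read 7.03, 7.24 and 7.29 after sham and 6.18 to 7.02, with a median of 6.61, after MCAO, and the lowest sham and highest MCAO array nearly met. Its difference was -0.54 (SE 0.16, limma adjusted p 0.0264). With only 3 sham arrays, the Pcdhb17 call was lost without any of them (adjusted p 0.0958, 0.0814 and 0.0609 without sham 1, 2 and 3), and that of Pcdhb7 without sham 2 or 3 (0.0952 and 0.112).

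Pcdhb9 had the widest spread of the 10 genes. The wild type sham arrays read 8.18, 8.16 and 8.22, and wild type MCAO arrays 1 to 7 read 3.99, 4.77, 5.50, 6.77, 8.11, 7.51 and 7.98. All 7 MCAO arrays were below the sham arrays, array 5 only just and array 1 by far. The log2 difference of -1.81 (SE 0.63) missed the threshold, with a limma adjusted p of 0.0524. It passed at 0.0454 when genes under the 25th percentile of mean signal were left out and at 0.0211 without MCAO array 5. Groups that did not overlap were found for 4 of the 10 genes in this comparison (Pcdhb7, Pcdhb9, Pcdhb17 and Pcdhb20, all lower), against 9.26% of all genes in that direction.

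The other 6 genes were not called in wild type mice. Pcdhb3 read 7.77, 7.33 and 7.52 after sham and 5.97 to 7.53, with a median of 7.11, after MCAO (difference -0.56, SE 0.23, limma adjusted p 0.11), and the groups overlapped. Pcdhb16 read 6.06, 7.07 and 7.45 after sham, a wide spread, and 6.01 to 6.79 after MCAO (difference -0.38, SE 0.24). The remaining 4 differed by -0.18 (Pcdhb14) to 0.09 (Pcdhb5). Pcdhb14 and Pcdhb16 have further probe sets, and these differed in level but none was called: the 3 of Pcdhb16 gave -0.38, -0.24 and -0.15, and the 2 of Pcdhb14 gave -0.18 and -0.02.

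Neuron markers differed in the same direction. All 10 had a negative difference in wild type mice and 3 were called lower: Tubb3, a neuronal tubulin, by -0.82 (SE 0.15, limma adjusted p 0.000794), Nefl, a neurofilament subunit, by -0.52 and Syt1, a synaptic vesicle protein, by -0.25. The mean log2 signal over the 10 markers ran from 11.91 to 12.20 on the sham arrays and from 11.42 to 11.95 on the MCAO arrays. In knockout mice, where Pcdhb7, Pcdhb17 and Pcdhb20 were not called, 7 of the 10 markers were negative, with a median of -0.18, and Tubb3 was called lower (-0.51, SE 0.15). In a hemisphere, fewer neurons and less of an RNA per neuron cannot be told apart, and the part of the neuron markers in the protocadherin differences was not tested. Markers of other cells are given by list, wild type first and knockout second. Of 4 endothelial markers 3 and 2 were called higher after MCAO, with medians of 0.90 and 0.76. Of 6 astrocyte markers 2 were called higher in each genotype, Gfap (1.95 and 2.13) and Aldh1l1 (0.57 and 0.46), and the list's medians were 0.00 and 0.33. Of 4 microglial markers 2 were called lower in each, P2ry12 (-2.71 and -1.62) and Tmem119 (-0.72 and -0.54). Of 4 neutrophil markers S100a8 (3.76 and 2.10) and S100a9 (3.61 and 1.77) were called higher in each, and in knockout mice Ltf was called lower (-0.42). Of 5 oligodendrocyte markers 2 and 1 were called higher. No marker of choroid plexus or cerebellum, 4 genes each, was called in any comparison.

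In knockout mice 1 of the 10 genes, Pcdhb5, was called lower after MCAO and none was called higher, where 25% of all genes were called and 8.9% were called lower. Pcdhb22 had the largest positive difference, at 0.34 (SE 0.15, limma adjusted p 0.1). Pcdhb5 read 5.16, 5.36 and 5.16 on the knockout sham arrays and 4.55 to 5.22, with a median of 4.76, after MCAO. The groups overlapped by 1 MCAO array. The difference was -0.42 (SE 0.13, limma adjusted p 0.0261, 1.34-fold), and the call was lost without sham array 2 (adjusted p 0.135) or 3 (0.0642). The actin 3' minus 5' difference was 1.60 to 1.76 on the knockout sham arrays and 0.43 to 1.75 on the knockout MCAO arrays. With that difference as a covariate the Pcdhb5 change was -0.31, with a limma adjusted p of 0.162. In that fit Pcdhb3 was the only one of the 10 called, lower after MCAO, where 15.7% of all genes were called.

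The genes that fell in wild type mice did not pass in knockout mice. Pcdhb20 read 7.33, 7.21 and 7.15 on the knockout sham arrays and 6.82 to 7.69, with a median of 7.32, after MCAO, so the sham arrays lay inside the MCAO range. Its 95% interval for the difference ran from -0.37 to 0.36. Pcdhb17 read 7.87, 7.60 and 7.33 after sham and 7.20 to 8.29, with a median of 7.79, after MCAO (difference 0.10, interval -0.32 to 0.52). Pcdhb7 read 6.68, 6.71 and 6.75 after sham and 6.36 to 7.00 after MCAO (difference -0.03, interval -0.37 to 0.30). Pcdhb9 read 7.56, 7.54 and 7.54 after sham and 7.25 to 8.47, with a median of 7.84, after MCAO (difference 0.22, interval -1.08 to 1.52). These intervals use a spread shared by all 20 surgery arrays. For Pcdhb9 the SD was 1.63 on the wild type MCAO arrays, but 0.01 on the knockout sham and 0.41 on the knockout MCAO arrays. No gene of the 10 had groups that did not overlap in knockout mice, against 24.8% of all genes.

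The difference between these MCAO changes, knockout minus wild type, was fitted directly, and limma called 0 of the 10 genes where it called 9.59% of all genes. At an unadjusted p under 0.05 there were 5 of the 10, against 31.5% of all genes. The differences were 2.04 for Pcdhb9 (SE 0.88), 0.78 for Pcdhb17 (SE 0.28), 0.73 for Pcdhb20 (SE 0.25), 0.51 for Pcdhb7 (SE 0.23) and -0.52 for Pcdhb5 (SE 0.19). Each equals the genotype difference after MCAO minus that after sham. Those values are taken to have chosen the list, so these differences too are given as a description. An MCAO change that differs between the genotypes was not shown for any of the 10 at this threshold. Without knockout MCAO array 1, 3 of the 10 passed, and without knockout MCAO array 6 or wild type MCAO array 5, 1 did. Over all genes 14.8%, 11.6% and 11.4% were called in those fits, in the same order. Without knockout sham array 3, limma called 0 of all genes here (4253 at an unadjusted p under 0.05), so each gene named below for a change that differs between genotypes is not called without that array. With the actin difference as a covariate, limma called 8 of all genes here, all with a negative difference, and none of the genes named below.

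**Figure D2:**
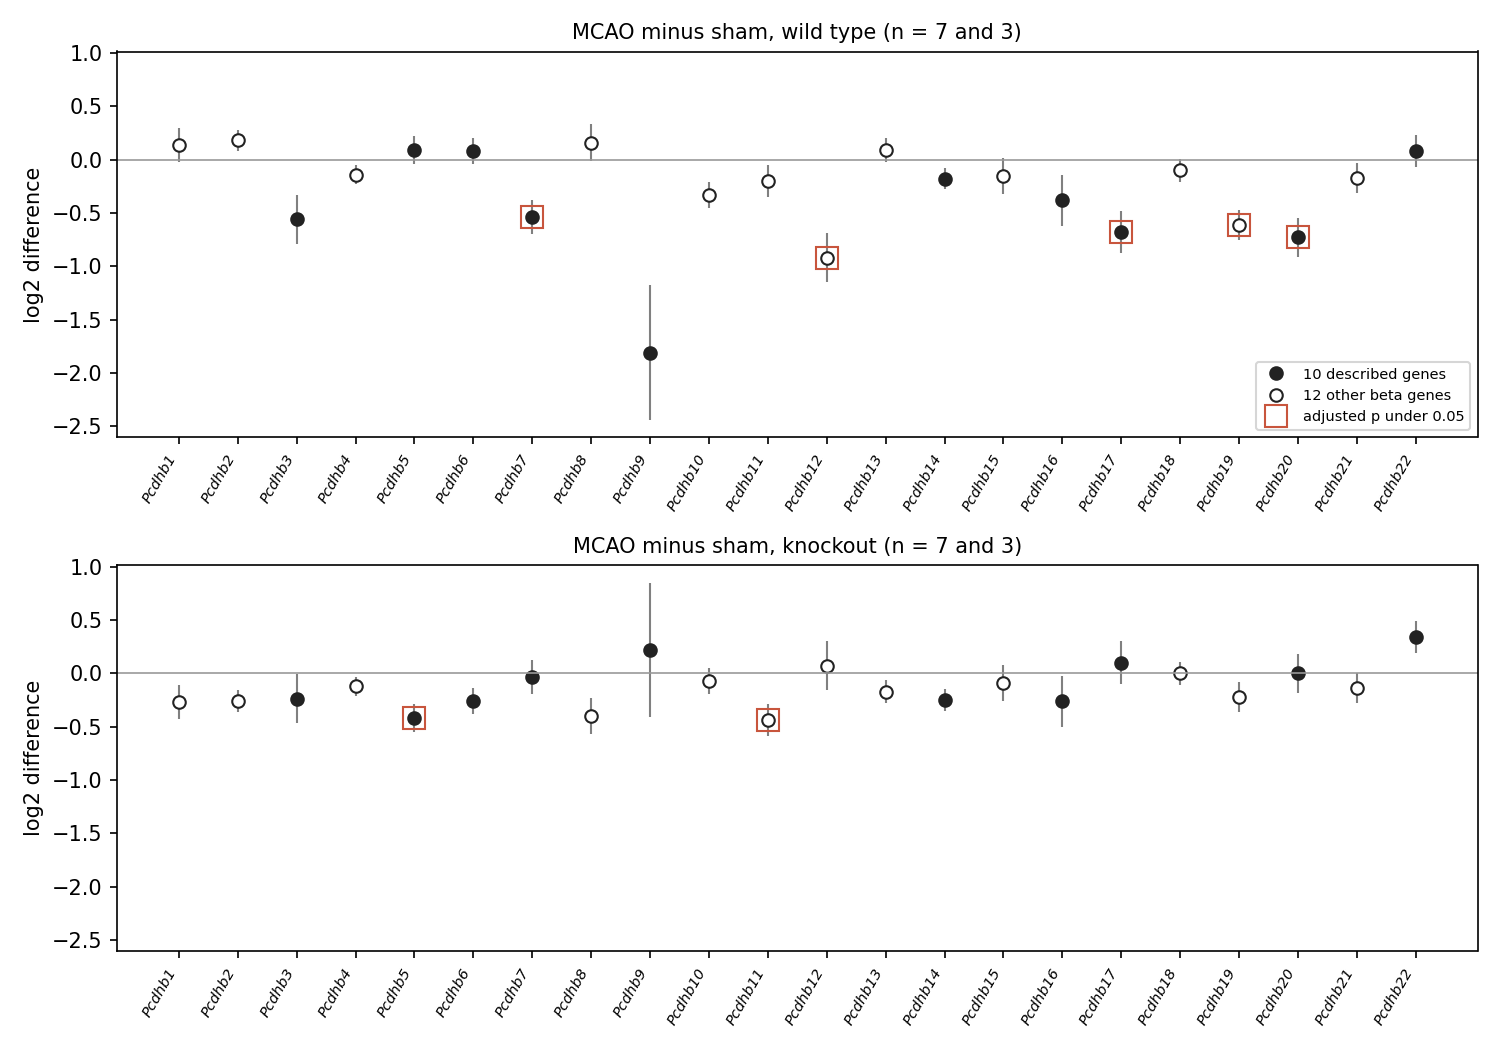
Log2 difference of MCAO minus sham (vertical axis; points, with SE as bars) for all 22 beta genes in their order along the chromosome, in wild type (top) and knockout (bottom) arrays; filled points are the 10 genes described, open points the other 12, and red squares mark a limma adjusted p under 0.05. In wild type mice the 5 marked genes all lie below 0, and in knockout mice Pcdhb5 and Pcdhb11 are marked.

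The other 12 beta genes, all with a probe set, are drawn as open points. In wild type mice Pcdhb12 (-0.92, SE 0.23, limma adjusted p 0.00972) and Pcdhb19 (-0.61, SE 0.14, limma adjusted p 0.00447) were lower after MCAO, and the median of the 12 was -0.15. In knockout mice Pcdhb11 (-0.44, SE 0.15) was the only one of the 12 called, and 11 of the 12 differences were negative, with a median of -0.16 against 0.00 over all genes.

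In naive mice the largest genotype difference among the 10 genes was that of Pcdhb9, which was 4.35-fold higher in the knockout. The wild type naive arrays read 5.81 to 7.55, with a median of 6.45, and the knockout arrays 8.37 to 8.76, with a median of 8.57. The groups did not overlap, and array 6 was the highest wild type array. The log2 difference was 2.12 (SE 0.19), or 2.28 without array 6. Pcdhb6 went the other way: wild type naive arrays read 5.52 to 6.45, with a median of 5.81, and knockout arrays 4.63 to 4.79, with a median of 4.68. Again the groups did not overlap. The difference was -1.16 (SE 0.11), 2.23-fold lower in the knockout, or -1.08 without array 6. Pcdhb6 was dim in this set too, at percentile 15.2 of mean naive signal. Among the 2669 genes called in naive mice, 1511 were lower in the knockout. When dim genes were left out, Pcdhb6 with them, 96 of 748 called genes were lower. By the probe set that stands for each gene, Pcdhb9 and Pcdhb6 were the only ones of the 10 called and the only ones without overlap. Of all genes 14.7% were called and 10.8% did not overlap. The further probe set of Pcdhb14 was also lower in the knockout without overlap, array 6 included (difference -0.3, SE 0.05). It was dim, at 3.91 to 4.04 in wild type and 3.6 to 3.8 in knockout arrays. The lowest signal on each array was lower in the knockout as well, at 3.19 to 3.28 against 3.49 to 3.73. The part of that offset in the difference was not tested. The further probe sets of Pcdhb16 differed by 0.2 and 0.02, with overlapping groups.

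The other 8 genes lay between -0.44 (Pcdhb3) and 0.21 (Pcdhb17 and Pcdhb22) in naive mice. On 9 of the 10 genes array 6 was above the other 7 wild type arrays, and on Pcdhb5 it was below them. Pcdhb20, for example, read 9.82 on array 6 and 7.24 to 7.81 on the other 7, against 7.75 to 8.05 in the knockout. Without array 6, limma called 7 of the 10 genes, 5 of them higher in the knockout (Pcdhb9, Pcdhb16, Pcdhb17, Pcdhb20 and Pcdhb22) and 2 lower (Pcdhb6 and Pcdhb14), but 36.5% of all genes were called as well. The 5 differences besides those of Pcdhb9 and Pcdhb6 were then small: 0.48 for Pcdhb16, 0.42 for Pcdhb17, 0.37 for Pcdhb20, 0.35 for Pcdhb22 and -0.15 for Pcdhb14.

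The naive arrays of the 2 genotypes also differed as a whole. Array medians were 6.87 to 6.94 in wild type and 7.03 to 7.05 in knockout arrays, and pairs of knockout naive arrays shared 3.87 to 6.38% of exactly equal values, against at most 0.106% in any other group. Centring each array on its median moved the median difference over all genes from 0.05 to -0.10 and the share of called genes that were higher in the knockout from 43.4% to 8.85%. Pcdhb9 stayed higher and Pcdhb6 lower in the knockout under that scaling, at 1.97 and -1.31.

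After surgery the genotype differences of Pcdhb9 and Pcdhb6 took other values. On the sham arrays Pcdhb9 was lower in the knockout (7.54 to 7.56) than in wild type (8.16 to 8.22), a difference of -0.64 (SE 0.74) without overlap, opposite to the naive arrays. Pcdhb6 was dim on all 20 surgery arrays, from 3.64 to 4.53, and slightly higher in knockout than in wild type sham arrays, by 0.28 (SE 0.14). After MCAO Pcdhb9 was higher in the knockout by 1.39 (SE 0.48) with overlapping groups, and Pcdhb6 differed by -0.06 (SE 0.09).

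Over the 10 genes, limma called 0 after sham, where it called 6.05% of all genes, and 0 after MCAO, where it called 0.044%. At an unadjusted p under 0.05 the counts were 3, against 25.8% of all genes, and 1, against 17.4%. After sham, 5 of the 10 were lower in the knockout without overlap (Pcdhb3, Pcdhb7, Pcdhb9, Pcdhb17 and Pcdhb20) and 2 were higher (Pcdhb5 and Pcdhb6), where 42.2% of all genes did not overlap between 3 and 3 arrays. The spread in that fit is shared with the MCAO arrays. A fit to the 6 sham arrays alone called 4 of the 10, Pcdhb7, Pcdhb9, Pcdhb17 and Pcdhb20, all lower in the knockout, and 19.0% of all genes. The actin difference stood apart between those groups too, at 0.86 to 1.01 in wild type and 1.60 to 1.76 in knockout sham arrays. With it as a covariate in the fit to the 20 surgery arrays, limma called 0 of the 10 and 6 of all genes after sham. Without wild type sham array 2 or knockout sham array 3, limma called 0 of all genes after sham. At an unadjusted p under 0.05 there were then 3568 and 3075. So each gene named below as called after sham is not called without either of these arrays. After MCAO none of the 10 genes was without overlap, against 0.368% of all genes.

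**Figure D3:**
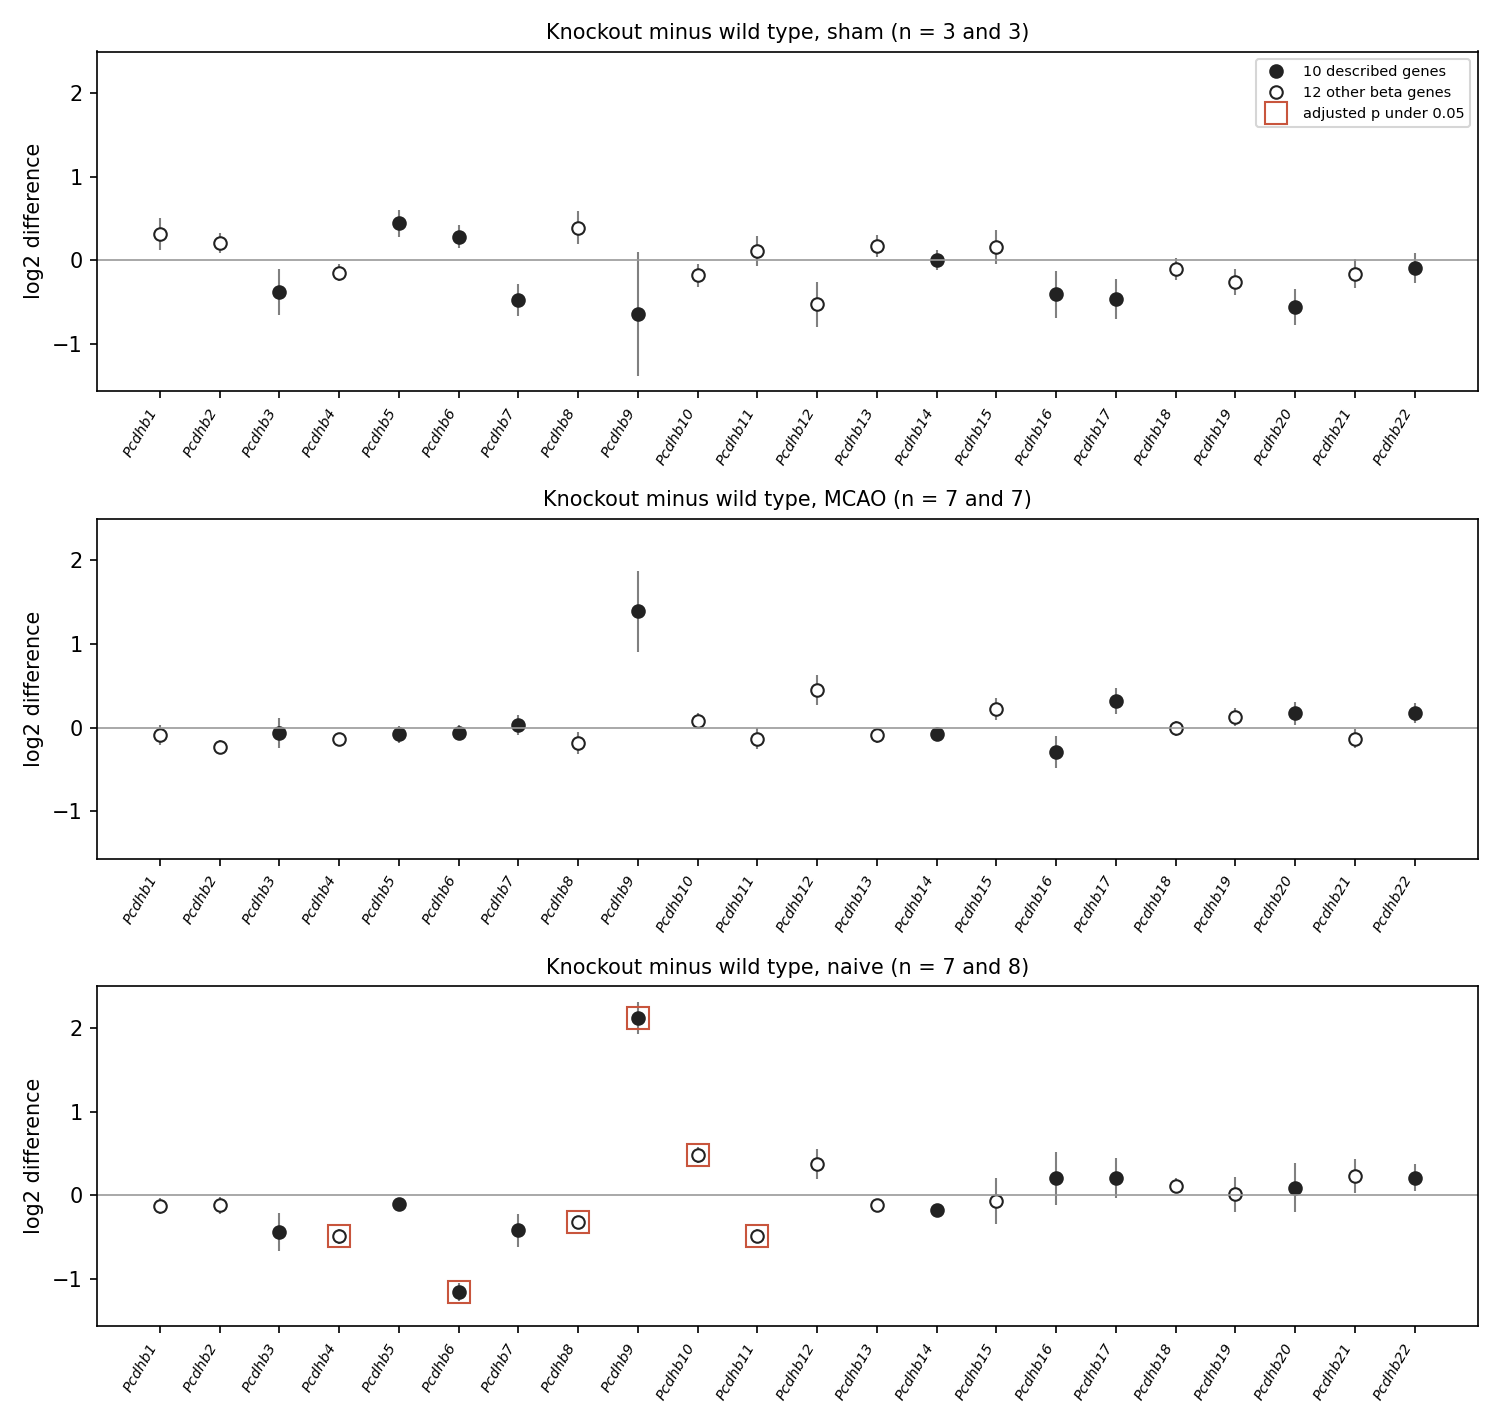
Log2 difference of knockout minus wild type (vertical axis; points, with SE as bars) for all 22 beta genes in their order along the chromosome, after sham (top), after MCAO (middle) and in naive mice (bottom); filled points are the 10 genes described, open points the other 12, and red squares mark a limma adjusted p under 0.05. Pcdhb9 reads -0.64, 1.39 and 2.12 in the 3 conditions, and only the naive panel holds marked genes.

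Among the other 12 beta genes 4 were called in naive mice: Pcdhb10 was higher in the knockout by 0.48, and Pcdhb4, Pcdhb8 and Pcdhb11 were lower by 0.49, 0.32 and 0.49. Without array 6 these 4 were still called, at 0.55, -0.43, -0.34 and -0.53, and Pcdhb12 (0.51) and Pcdhb21 (0.38) were called higher as well. None of the 12 was called after sham or after MCAO. In order along the chromosome, the genes called in naive mice with array 6 included were Pcdhb4, Pcdhb6, Pcdhb8, Pcdhb9, Pcdhb10 and Pcdhb11. Pcdhb8 to Pcdhb11 lie side by side, and the uncalled Pcdhb5 and Pcdhb7 lie before and after Pcdhb6.

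The gene most like Pcdhb9 over the 20 surgery arrays was Fgf1, a fibroblast growth factor, which lies on the same chromosome with 50 protein-coding genes between them. Pearson's r was 0.90 over the 20 arrays and 0.79 without the 2 arrays farthest from the median, and over the naive arrays it was 0.93, or 1.0 without array 6. The surgery value rests on few arrays. Wild type MCAO arrays 1, 2 and 3 read 3.99, 4.77 and 5.50 for Pcdhb9 and 6.71, 6.82 and 6.61 for Fgf1. The other 17 surgery arrays read 6.77 to 8.47 for Pcdhb9 and 8.70 to 9.85 for Fgf1, and r over those 17 was 0.29. A second probe set of Fgf1 gave 5.98 to 6.20 on the same 3 arrays and 7.64 to 8.48 on the other 17.

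In naive mice the genotypes separated in both genes: Fgf1 read 6.98 to 7.76 in wild type and 10.00 to 10.24 in knockout arrays. In the surgery set the wild type sham arrays (8.89 to 9.27) and wild type MCAO arrays 4 to 7 (8.88 to 9.44) lay among the knockout arrays (8.70 to 9.85) in Fgf1, and only wild type MCAO arrays 1 to 3 lay apart. The 3 low arrays were picked out after their values were seen, so no test is made of them, and what sets them apart was not tested.

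A further gene of the chromosome, Pmaip1, which encodes a pro-apoptotic protein, was chosen after its values were seen to set beside this pattern. It was lower in the knockout without overlap in all 3 conditions. After sham it read 5.64 to 6.30 in wild type and 4.45 to 4.63 in knockout arrays, after MCAO 7.04 to 8.84 and 5.88 to 6.80, and in naive mice 6.32 to 8.09 and 4.70 to 5.04. Wild type MCAO arrays 1 to 3 read 7.70, 7.74 and 7.45, inside the range of the other wild type MCAO arrays. The genotype labels thus went with a difference in Pmaip1 on all 35 arrays, while Pcdhb9 and Fgf1 were higher in the knockout without overlap in the naive set alone.

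**Figure D4:**
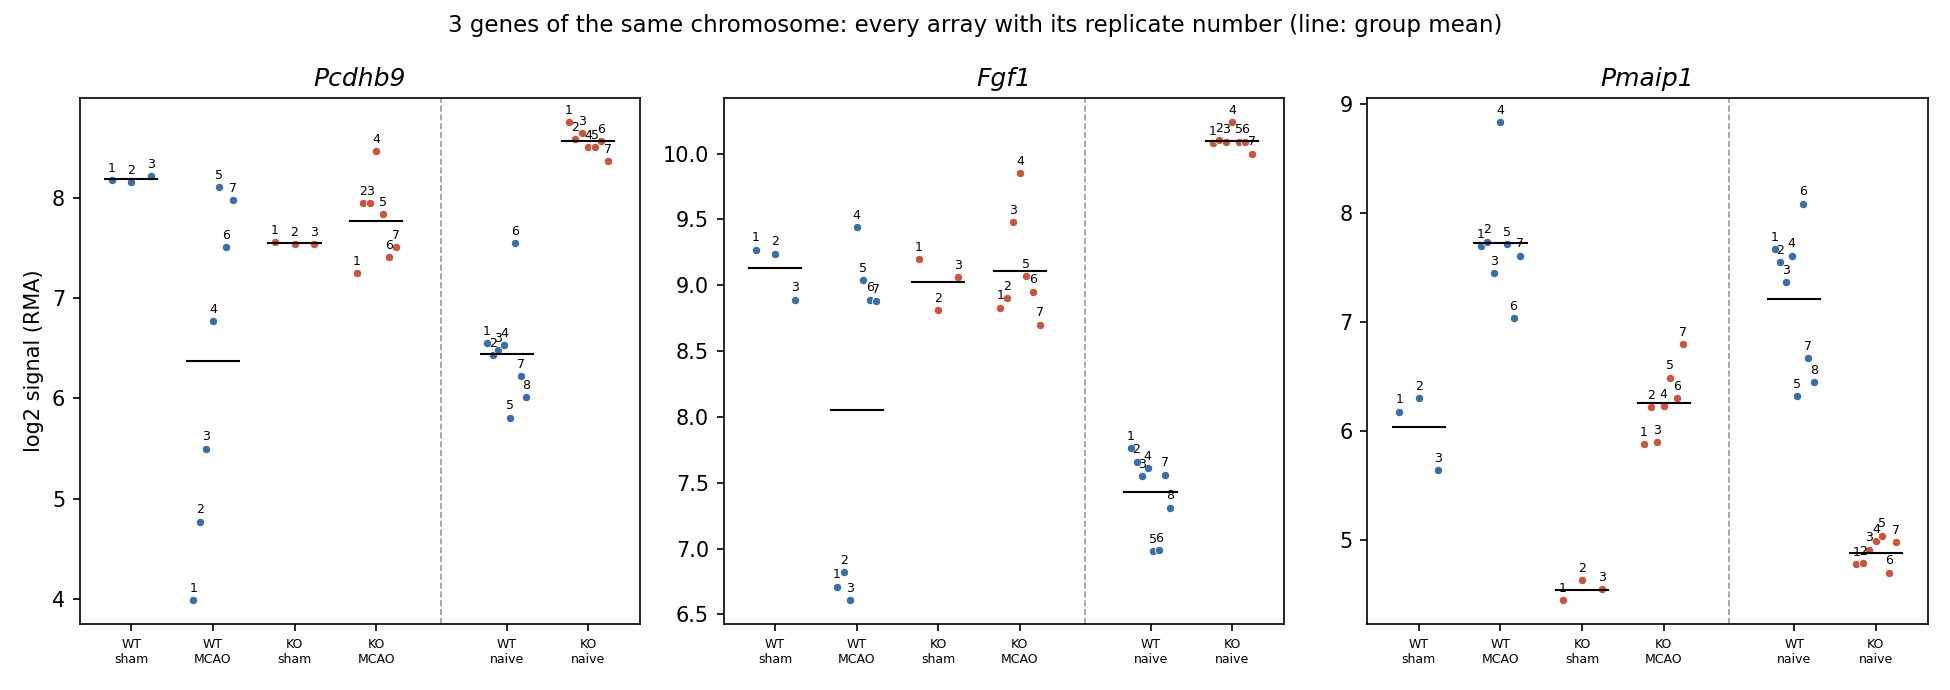
Log2 signal (vertical axis) of Pcdhb9, Fgf1 and Pmaip1 on every array by group (points, numbered by replicate; blue wild type, red knockout; line, group mean), with the naive arrays, normalized apart, right of the dashed line. Wild type MCAO arrays 1 to 3 read 6.61 to 6.82 in Fgf1, below the 8.70 to 9.85 of the other surgery arrays, while Pmaip1 separates the genotypes in each condition.

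For the other 9 the most alike gene was likewise sought outside the clustered protocadherins. Over the same 20 arrays they were Ccdc85a for Pcdhb3 (r 0.90), Ugt3a2 for Pcdhb5 (0.89), Coq2 for Pcdhb7 (0.90), Cyp11a1 for Pcdhb14 (0.79), Kdm5b for Pcdhb16 (0.87), Rab9b for Pcdhb17 (0.91), Rnf180 for Pcdhb20 (0.92) and Ap4b1 for Pcdhb22 (0.89). Pcdhb6 was most like Tmco6, a neighbour of the cluster (0.82). On the 15 naive arrays r was low or negative for 5 of these pairs, and array 6 weighed on it: with and without that array it was -0.58 and 0.57 for Coq2, 0.03 and 0.92 for Kdm5b, 0.15 and 0.51 for Ugt3a2, 0.09 and 0.07 for Cyp11a1 and 0.09 and -0.44 for Tmco6. These genes have the highest r among all genes outside the clustered protocadherins, the arrays share their groups, and r over them is a description.

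The 10 genes varied in part apart from one another. Among their 45 pairs r over the surgery arrays ran from -0.47 to 0.91, with a median of 0.18 and 6 pairs over 0.6. Pcdhb17 with Pcdhb20 gave the highest, equal to that of Pcdhb17 with Rab9b. On the naive arrays without array 6 it ran from -0.97 to 0.94, with a median of 0.13 and 15 pairs over 0.6.

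Little of the alpha and gamma groups could be read on these arrays. None of the 14 alpha genes had a probe set of its own. The 6 probe sets that match several alpha genes gave differences of -0.65 to 0.02 for MCAO in wild type mice, 1 of them called, and of -0.50 to 0.00 in knockout mice, 3 of them called. In naive mice they ran from -0.06 to 0.48, with 1 called, and without array 6 from -0.09 to 0.35, with 1 called. Pcdhgc4 was the single one of 22 gamma genes measured, and it was called in naive mice, higher in the knockout by 0.44 (SE 0.09), or 0.39 without array 6.

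Protocadherins outside the cluster, which lie as single genes, were measured in full (12 of 12). In wild type mice Pcdh10 (-0.89, SE 0.13, limma adjusted p 0.000125) and Pcdh11x (-0.70) were lower after MCAO and Pcdh1 was higher (0.59). In knockout mice Pcdh7 was higher (0.53). Pcdh10 was the only one of the 12 whose MCAO change differed between genotypes, by 0.96 (SE 0.19, limma adjusted p 0.0164).

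Regulators of the clustered genes were measured for 22 of 23. In wild type mice 1 was higher after MCAO, Rest, a repressor of neuronal genes (0.98, SE 0.15), and 2 were lower, the cohesin-associated Pds5b (-0.81) and the DNA methyltransferase Dnmt3a (-0.54). In knockout mice 6 were higher and 1 lower, and the 4 with the smallest p were Wapl, which releases cohesin (0.53), the cohesin subunits Rad21 (0.49) and Smc1a (0.38), and Rest (0.60). The MCAO change differed between genotypes for 3 of the 22: Wapl (0.74, SE 0.17, limma adjusted p 0.0182), Rad21 (0.65) and Smchd1, a chromatin protein that represses these clusters (0.70). In naive mice 2 were higher in the knockout, Dnmt1 (0.23) and Wiz (0.30), and without array 6 there were 9, these among them (0.24 and 0.29). Ctcf was not called in any comparison.

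Binding partners and downstream proteins, 17 of 20 measured, were called lower for 5 and higher for 1 in wild type mice after MCAO. Those with the smallest p were Marcks, a membrane-linked actin regulator (-0.82, SE 0.14, limma adjusted p 0.000553), the actin-branching complex members Wasf1 (-0.61) and Nckap1 (-0.41), and the kinase Ptk2b (-0.57). In knockout mice the only one called was Adam10, a protease that cuts protocadherins at the cell surface (0.62, SE 0.10). Marcks (0.65), Abi1 (0.64) and Adam10 (0.78) differed between the genotypes in their MCAO change. No partner was called by limma in naive mice, and without array 6 there were 2, Prkca (0.17) and Axin1 (0.28), both higher in the knockout. After sham, 1 gene in each of the last 3 lists was called lower in the knockout: Pcdh10 (-0.66), Wapl (-0.71) and Adam10 (-0.64). These calls were lost without wild type sham array 2 or knockout sham array 3.

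Of the 20 nearest measured genes on either side of the cluster, 2 were higher after MCAO in wild type mice, Cd14, a receptor of innate immunity (4.71, SE 0.54), and Pcdh1. In knockout mice 4 were higher and 2 lower, among them Cd14 (3.54), Hars, a histidine tRNA synthetase (0.79), Ik (0.44) and E230025N22Rik (-0.36). In naive mice 2 were higher and 5 lower in the knockout, and the 4 with the smallest p were E230025N22Rik (-0.63), Pcdh12 (-0.63), 1700086O06Rik (-0.34) and Wdr55 (-0.22). Without array 6 these 7 were still called, and 5 more were called higher. After sham, E230025N22Rik was called higher in the knockout (0.39), opposite to its naive difference, and Hars (-0.75) and Ik (-0.43) were called lower. Each of these sham calls was lost without wild type sham array 2 or knockout sham array 3. None of the 20 was called between genotypes after MCAO.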

How the data were processed

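The authors deposited log2 signals of 45101 probe sets on 35 arrays, made with RMA per the submitters' processing notes; its version is not given in the sources used here. Naive arrays were normalized apart, per the labels. Of the 45101 probe sets, 64 were controls, 34945 had 1 gene symbol, 932 several and 9160 none listed in GEO's platform annotation; the RefSeq gene table (GRCm38.p6, used for names and gene order only) held the Entrez IDs of 34741. The probe set with the highest mean stood for each of 18193 genes.

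limma 3.58.1 in R 4.3.3 (lmFit, contrasts.fit, eBayes) was fitted to the 20 surgery arrays and, separately, to the 15 naive arrays, with Benjamini-Hochberg adjustment over all genes, and was checked on simulated data. The members and lists were chosen with earlier results of these data known. All 10 members are named; of other lists, the called genes with the smallest p, up to 4 per comparison; for each member, the most alike gene outside the clusters. Alternatives were another summary of probe sets, scaling, dim genes left out, variance model, arrays in the fit, threshold, replicate block and each array left out; an actin covariate was added after seeing the data. Precision is limited by the number of arrays. Values of the knocked-out gene itself are not reported here.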

Additional observations from a re-analysis of the deposited data

Results flagged for a closer look

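By the probe set that stands for each gene, 8 of the 10 lay far above the other wild type naive arrays on wild type naive array 6. They were Pcdhb3 at 9.52, Pcdhb6 at 6.45, Pcdhb9 at 7.55, Pcdhb14 at 4.79, Pcdhb16 at 8.69, Pcdhb17 at 10.04, Pcdhb20 at 9.82 and Pcdhb22 at 6.50. The further probe sets of Pcdhb14 and Pcdhb16 lay within or below the other arrays there. On wild type MCAO array 4, Pcdhb3 (5.97) and Pcdhb17 (6.71) lay far below the other MCAO arrays. Of 40 sets of arrays tested 10 gave such a value, 8 of them on the same array. For independent sets chance gives about 1 in 20. The genes are read from the same arrays, so these sets are not independent and nothing is read from that rate.

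In Pcdhb9 every knockout naive array was above every wild type one (difference 2.12), and every knockout sham array was below (-0.64). In Pcdhb6 every knockout naive array was below (-1.16) and every knockout sham array above (0.28). These differences between sham and naive mice were not tested, since the 2 sets were normalized apart.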

How the results depend on the processing

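No difference of the 10 genes that was called changed direction under any alternative. MCAO in wild type mice called 3 of the 10, but 1 at adjusted p under 0.01. It called 5 with the actin covariate (chosen after seeing the data). With each array left out in turn it called 1 to 4 (1 without sham 2 or 3). Over all genes 15.9% were called, or 7.07% at adjusted p under 0.01 and 21.1% with the actin covariate. Without sham 2 and 3 the shares were 10.2% and 9.18%. In knockout mice the count was 1, but 0 at adjusted p under 0.01 and without sham 2 or 3 (range 0 to 1). Quantile normalization again called Pcdhb22, higher after MCAO, in place of Pcdhb5, which was lower. The actin covariate called Pcdhb3, lower after MCAO, in place of Pcdhb5. Leaving out dim genes removed Pcdhb5, Pcdhb6, Pcdhb14 and Pcdhb22 and tested 6 of the 10, so its counts of 0 in knockout mice after MCAO and 1 in naive mice come from the filter and lose no tested call. For the difference of the changes the count was 0, and 0 to 3 with each array left out, where 0 to 14.8% of all genes were called. Genotype after sham gave 0, but 4 with the sham arrays alone (19.0% of all genes), and after MCAO 0 under each alternative. The naive count was 2, but 4 with arrays centred, 7 with the actin covariate and 2 to 7 with each array left out. Over all genes 14.7% were called in naive mice, or 20.4% with arrays centred, 34.3% with the actin covariate and 36.5% without array 6.

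Replicate numbers did not pair the arrays: over 29 same-numbered pairs r of deviations was -0.278 to 0.362, and 5 correlated best with their own number. The replicate block gave 3, 0, 0, 0, 0 and 2 members in the 6 comparisons in the order above. Over all genes it called 11.1, 21.6, 8.9, 4.57, 0.044 and 10.2% in the same order. With the block, Pcdhb9 was called in wild type mice after MCAO (-2.65) and Pcdhb17 was not (-0.66).

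Over all genes, the difference of the MCAO changes had 1744 calls, but 339 after quantile normalization again, 8 with the actin covariate and 0 without knockout sham array 3 (4253 at an unadjusted p under 0.05). Its share of higher calls was 42.7%, or 66.6% with arrays centred. Genotype after sham had 1101 calls (58.2% higher; 47.7% with arrays centred), but 303 after quantile normalization again, 6 with the actin covariate and 3451 with the sham arrays alone. It had 0 calls without wild type sham array 2 or knockout sham array 3. Genotype after MCAO had 8 calls, but 986 with the actin covariate. Naive genotype had 2669 calls (43.4% higher), but 1499 after quantile normalization again and 748 with dim genes left out (87.2% higher). It had 6243 with the actin covariate and 6641 without wild type naive array 6. The causes were not tested.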
